A study of Mus musculus with 13 samples.

Results

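The oxidative phosphorylation genes are those that encode the nuclear subunits and assembly factors of respiratory complexes I to V and cytochrome c. They were chosen by symbol: all genes starting with Nduf, Uqcr, Atp5, Cox4, Cox5, Cox6, Cox7 or Cox8, together with Sdha, Sdhb, Sdhc, Sdhd, Cycs and Cyc1. The rule found 90 of the 18820 genes that the arrays measured with a probeset (a set of probes for 1 transcript) annotated to a single symbol. Of these, 41 belonged to complex I (6 core subunits, 28 other subunits and 7 assembly factors), 4 to complex II, 8 to complex III and 1 was cytochrome c. Complex IV had 19 members, Ndufa4 and Ndufa4l2 among them, and complex V, the ATP synthase, had 17. Each gene was read from its brightest probeset over the 13 arrays, and 24 of the 90 members had more than 1. A further 4 symbols by the same rule, among them Cox7c, Ndufa13 and Uqcrc2, lay only on probesets shared with other genes, and they and the subunits encoded by mitochondrial DNA were not analysed here.

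Oxidative phosphorylation takes electrons from NADH at complex I and from succinate at complex II and passes them through complex III and cytochrome c to oxygen at complex IV. Complexes I, III and IV pump protons across the inner mitochondrial membrane, and the ATP synthase uses that gradient to make ATP. In the gastric corpus the acid-secreting parietal cell is known for very dense mitochondria, because its proton pump consumes ATP, whereas the chief cell is a secretory cell that makes pepsinogen. Several complex IV subunits and subunit c of the ATP synthase come from more than 1 gene, with tissue isoforms known best from heart and skeletal muscle.

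Mouse gene arrays were hybridised in 2 experiments. The first used Troy-EGFP-ihres-CreERT2 mice, which carry a green fluorescent reporter and an inducible Cre at Troy (Tnfrsf19), and held 3 arrays of sorted Troy positive chief cells, 2 of sorted Troy positive parietal cells and 2 of whole corpus glands that were processed directly. Each sorted array drew on corpus glands pooled from 10 mice and about 100000 cells, which were trypsinised and sorted, while the glands were not sorted. One protocol text names the intestine as the source where the other labels name the gastric corpus. The second used organoids grown from single Troy positive chief cells: 3 arrays in EGFNWR medium, which contains EGF, Gastrin, FGF10, Noggin, Wnt3a and Rspondin, and 3 in ER medium, which contains EGF and Rspondin. The labels do not say that replicate cultures came from different animals, so p-values measure the spread between these arrays, which may be technical. Levels are log2 values, on which 1 unit is a doubling. The array median, taken over all probesets with or without a symbol, lay between 5.01 and 5.30. It was lower than the level of the typical gene: the median over genes of the mean level on the 13 arrays was 5.74.

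The 3 chief cell arrays were not alike. Over all genes, chief c correlated more closely with the parietal arrays (r = 0.979 and 0.982) than with chief a (0.950) or chief b (0.961). Krt5, a keratin of the squamous forestomach, was at 11.85 on chief b and between 4.18 and 6.37 on the other 12 arrays. The log2 of the summed level of 10 chief cell genes was 15.55, 15.61 and 15.31 on chief a, b and c. On the parietal arrays it was 15.07 and 15.06, between the gland values of 14.89 and 15.25. The sorted parietal cells were thus not free of chief transcripts. The parietal proton pump gene Atp4a was at 13.06, 12.62 and 13.22 on chief a, b and c, against 13.16 and 13.08 on the parietal arrays, so the sorted chief cells were not free of parietal transcripts. In organoids it lay between 5.09 and 6.38, near the array medians. The counts of members called and the median differences that involve chief cells are therefore also given without chief b and without chief c.

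The members as a group were bright. On all 13 arrays 80 of the 90 were above the array median, against 44.9% of all genes, and 5 were below it on all 13 (Cox4i2, Cox7b2, Cox8b, Cox8c and Ndufa4l2). The median member was at 10.23, 9.32 and 10.69 on chief a, b and c, at 10.90 and 10.94 on the parietal arrays, and at 10.27 and 10.08 on the gland arrays. It was at 9.04, 8.97 and 9.08 in EGFNWR organoids and at 9.03, 9.05 and 9.04 in ER organoids. The parietal arrays were thus highest, the organoid arrays lowest, and the chief arrays spread over the range between them. By group, the median member averaged 10.92 ± 0.03 (SD, n = 2) in parietal cells, 10.17 ± 0.13 (n = 2) in glands, 10.08 ± 0.70 (n = 3) in chief cells, 9.04 ± 0.01 (n = 3) in ER organoids and 9.03 ± 0.06 (n = 3) in EGFNWR organoids. Of the neighbours in that order, the parietal arrays did not overlap with the gland arrays, nor the chief arrays with the ER arrays. The glands lay within the range of the chief arrays, and the ranges of ER and EGFNWR organoids overlapped.

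**Figure D1:**
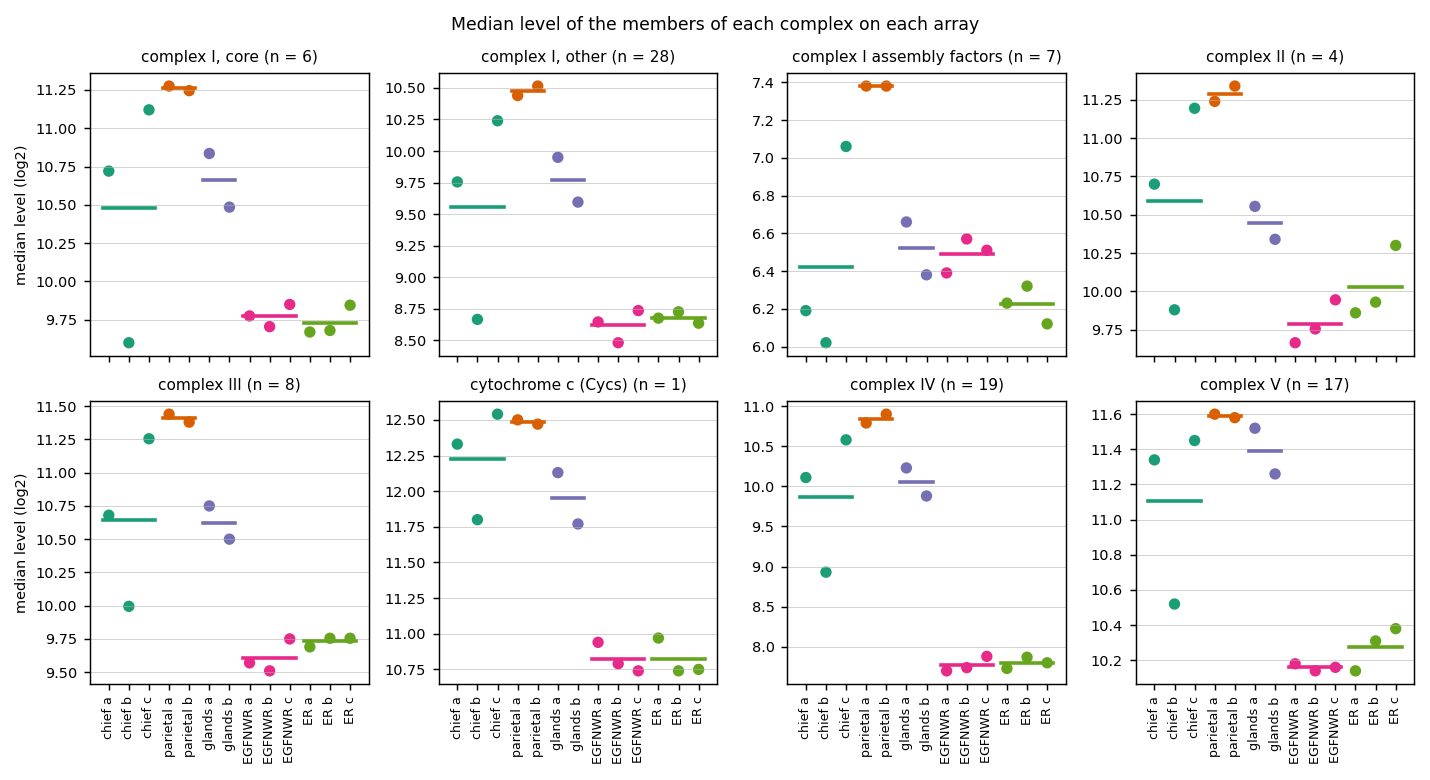
Median log2 level of the members of each complex (vertical axes, which differ between panels and do not start at 0) on each of the 13 arrays (horizontal axis); points are arrays, coloured by group, and bars are group means. In the panels of complexes III, IV and V and of cytochrome c the organoid arrays lie below all 7 sorted cell and gland arrays, and the parietal arrays lie above the glands in every panel.

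The same order recurred gene by gene. Both parietal arrays were above the other 11 for 67 of the 90 members (74.4%, against 10.3% of all genes). Chief b was the lowest of the 7 sorted cell and gland arrays for 78 members (86.7%, against 22.0%), and chief c was the highest chief array for 81 (90%, against 38.5%). All 6 organoid arrays were below all 7 others for 36 members (40.0%, against 7.4%). Ndufaf1, an assembly factor of complex I, was the single member for which all 6 organoid arrays were above the others (1.1%, against 12.0% of all genes).

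**Figure D2:**
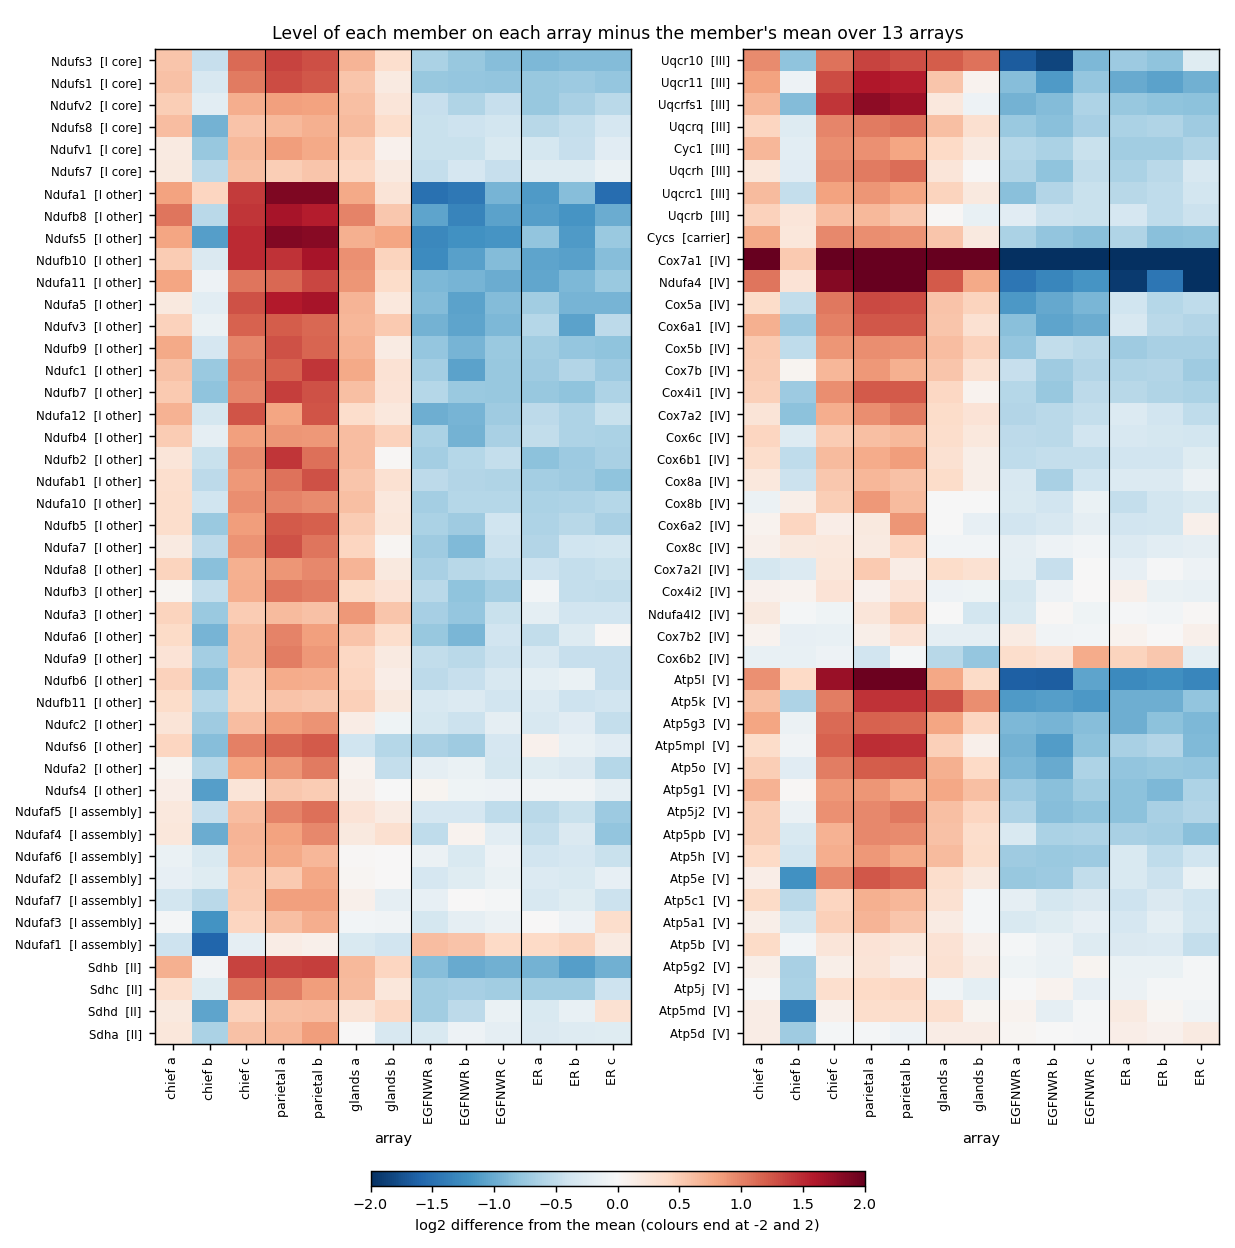
Log2 level of each of the 90 members on each array minus that member's mean over 13 arrays, ordered by complex; red is above and blue below the mean, and colours end at -2 and 2. The parietal columns are red and the organoid columns blue for most members, chief b is paler or bluer than chief a and c, and Ndufaf1 and Cox6b2 run the other way.

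The parietal markers moved with the members across arrays. The mean level of 15 parietal cell genes was 10.93, 9.95 and 11.43 on chief a, b and c, 11.66 and 11.58 on the parietal arrays and 11.04 and 10.51 on the gland arrays, and between 7.04 and 7.28 on the organoid arrays. All 15 were above the array median on each sorted cell and gland array, and 9 or 10 of them on each organoid array. The log2 of their summed level ranged from 14.85 to 15.87 on chief arrays, from 15.96 to 15.98 on parietal arrays, from 15.27 to 15.57 on gland arrays, from 13.42 to 13.47 in EGFNWR organoids and from 13.81 to 14.01 in ER organoids. Chief b was lowest and the parietal arrays highest of the 7 for both lists. What part the parietal cell content of an array had in the levels of the members was not tested, and in these bulk samples fewer cells of a type and less RNA per cell cannot be told apart.

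**Figure D3:**
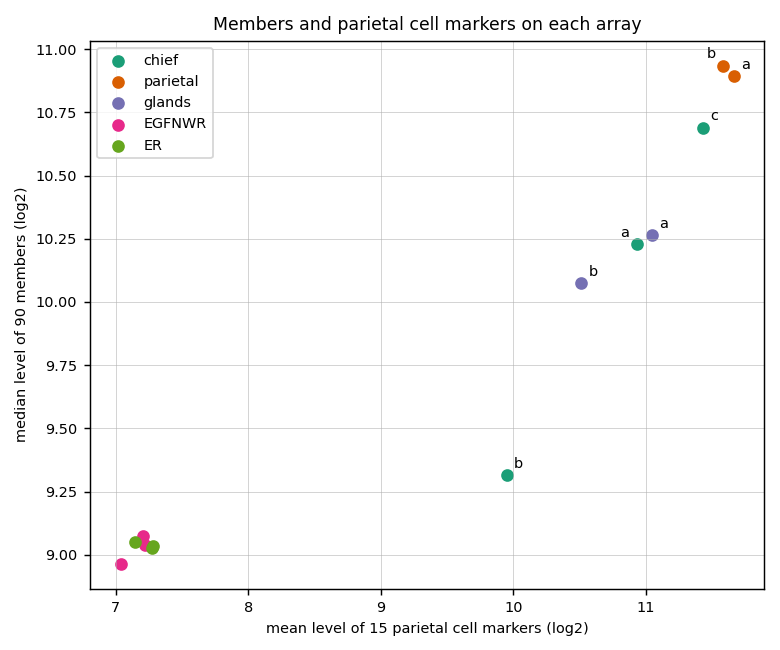
Median log2 level of the 90 members (vertical axis) against the mean log2 level of 15 parietal cell markers (horizontal axis) on each of the 13 arrays; letters name the sorted cell and gland arrays. The organoid arrays lie together at the lower left, chief b is the lowest of the sorted cell and gland arrays on both axes, and chief c lies next to the parietal arrays.

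Sorted parietal cells were set against sorted chief cells to ask how the Troy positive populations differ. The mean was lower in chief than in parietal cells for 89 of 90 members, with a median difference of -0.72 against -0.045 over all genes. No member and no gene passed an adjusted p of 0.05 in limma (0% of 18820 genes), so none is called. At an unadjusted p of 0.05, 24 members were lower (26.7%, against 6.26% of all genes) and none was higher (against 5.86%). For 71 members (78.9%, against 19.2%) all 3 chief arrays were below both parietal arrays.

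In complex I, whose core subunits carry the flavin and the iron-sulfur clusters, the median difference was -0.69 over the 6 core subunits, -0.89 over the 28 other subunits and -0.91 over the 7 assembly factors. Ndufs5, an accessory subunit, was at 7.86, 5.97 and 8.57 on chief a, b and c and at 8.93 and 8.90 on the parietal arrays. Its chief arrays lay below the parietal ones but spanned a wide range, with chief b lowest, and the difference of -1.45 (SE 0.64) had an adjusted p of 0.42 in limma. The medians were -0.70 in complex II, -0.72 in complex III, -0.52 in complex IV and -0.57 in complex V. Sdha, the flavoprotein of succinate dehydrogenase, was at 10.84, 9.98 and 11.20 on chief a, b and c and at 11.28 and 11.45 on the parietal arrays, with no overlap (adjusted p 0.45, limma). Uqcrfs1, the Rieske iron-sulfur protein of complex III, was at 9.37, 7.84 and 10.13 on the chief arrays and at 10.49 and 10.40 on the parietal ones, a difference of -1.33 (SE 0.57, adjusted p 0.41). Cytochrome c differed less, by -0.26 (SE 0.25), and its groups overlapped. Cox6b2, a complex IV isoform near the array medians, was the member with the opposite sign (0.07, SE 0.19).

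Leaving out chief c, the array close to the parietal ones, brought 15 members past the threshold in limma, all lower in chief cells (7.01% of all genes passed in either direction), and moved the median difference to -1.01. Ndufa5, an accessory subunit of complex I, was then lower by 1.63 (adjusted p 0.012) and the assembly factor Ndufaf7 by 1.28 (adjusted p 0.013). With chief c, Ndufa5 was at 7.03, 6.63 and 8.11 on the chief arrays and at 8.42 and 8.49 on the parietal ones, so its groups did not overlap either way, and the adjusted p was 0.35. Without chief b, the median difference was -0.37 and no member passed in limma (0% of all genes passed). In that fit 12 members were lower at an unadjusted p of 0.05 in limma, for which the share of all genes was not counted.

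Whole glands hold all cell types of the corpus and were the study's reference. Between chief cells and glands no member was called in limma, against 0.478% of all genes. An unadjusted p under 0.05 was found for 2, Uqcrb and Cox6b2, both higher in chief cells (2.22%, against 6.35%). The median difference was -0.09, against 0.05 over all genes. Uqcrb, a subunit of complex III, was at 12.18, 11.97 and 12.34 on the chief arrays and at 11.74 and 11.58 on the gland arrays, without overlap (0.50, SE 0.19, adjusted p 0.27 in limma). The sign of the median rested on single arrays. It was 0.24 without chief b, with 82 of 90 members higher in chief cells, and -0.38 without chief c, with 77 lower.

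The mean was higher in parietal cells than in glands for 87 of 90 members, with a median difference of 0.60, against 0.14 over all genes. None was called in limma, against 1.62% of all genes, and 17 had an unadjusted p under 0.05 with the parietal cells higher (18.9%, against 9.85%). For 84 members (93.3%, against 41.6%) both parietal arrays were above both gland arrays. Ndufa1, a small accessory subunit of complex I, was at 8.54 on both parietal arrays and at 7.43 and 6.93 on the gland arrays. That difference, 1.36 (SE 0.33), had the smallest adjusted p of any member, 0.082. The difference was larger for Uqcrfs1 (1.69, SE 0.62), Ndufs6 (1.68, SE 0.52) and Atp5l, subunit g of the ATP synthase membrane part (1.38, SE 0.39), with adjusted p between 0.117 and 0.184. Atp5d, Ndufa3 and Atp5g2 had the opposite sign, by at most -0.22. The number of members called, 0 here, was 34 when only these 4 arrays were fitted and 10 when all 13 were, and 14.4% of all genes were called in each of these fits.

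Organoids in EGFNWR medium were next compared with the sorted chief cells from which such cultures start. The organoids came from another experiment than the sorted cells, so culture and experiment cannot be told apart. In 1 limma fit over all 13 arrays, 51 of the 90 members were lower in the organoids at an adjusted p of 0.05 (56.7%, against 16.2% of all genes) and 2 were higher (2.22%, against 24.1%). Either way, 58.9% of the members were called, against 40.3% of all genes. The ranges of the groups did not overlap, with the organoids lower, for 45 members (50%, against 21.3%), and with the organoids higher for 2 (against 26.8%). The median difference was -0.81, against -0.07 over all genes. Centring each array on its median moved the median of all genes to 0.07, by more than 0.1, and that of the members to -0.67, with 42 members called. Among the 80 members above the array median on all arrays the median was -0.85, against 0.26 for the 8458 genes that met the same condition.

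**Figure D4:**
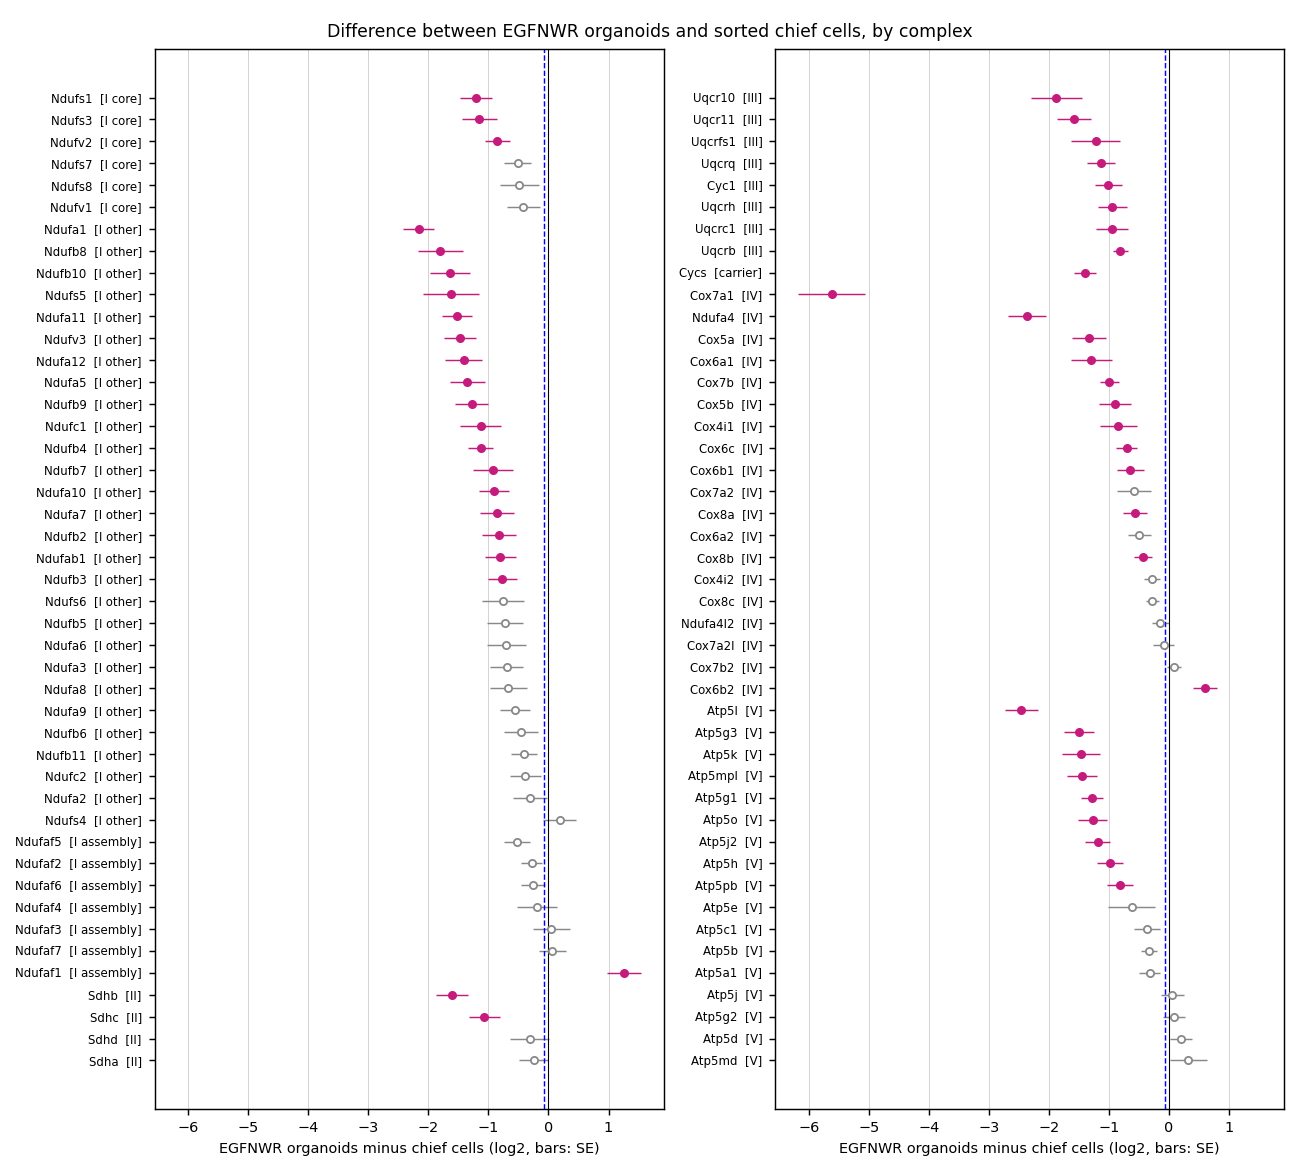
Log2 difference between EGFNWR organoids and sorted chief cells (horizontal axis) for each of the 90 members, by complex; points are differences of group means from the fit over 13 arrays, bars are 1 SE, filled points have an adjusted p under 0.05 and the blue dashed line is the median of all genes. All 8 members of complex III are filled and lie left of 0, while of the complex I assembly factors only Ndufaf1 is filled and lies to the right.

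In complex I, 3 of the 6 core subunits fell. Ndufs1 fell by 1.21 (SE 0.26, adjusted p 0.0033), and Ndufs3 and Ndufv2 had differences of -1.15 (SE 0.30) and -0.85 (SE 0.20). Ndufs1 was at 9.69, 8.78 and 10.14 on the chief arrays and at 8.35, 8.33 and 8.31 in EGFNWR organoids, so the groups did not overlap even at chief b. Of the 28 other subunits 17 fell, 7 of 12 named Ndufa and 7 of 10 named Ndufb among them. Ndufa1 was at 7.48, 7.10 and 8.08 on the chief arrays and at 5.19, 5.24 and 5.74 in the organoids, close to the array medians. It fell by 2.16 (SE 0.26, adjusted p 7.5e-05). The differences were -1.80 (SE 0.38) for Ndufb8 and -1.64 (SE 0.34) for Ndufb10. Ndufs4, whose loss is a known cause of complex I deficiency, did not pass (0.19, SE 0.27).

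Of the 7 assembly factors, which help to build complex I and are not part of the finished enzyme, none fell and 1 rose. Ndufaf1 was at 7.35, 6.17 and 7.57 on the chief arrays, at 7.91 and 7.86 on the parietal arrays and at 7.45 and 7.37 on the gland arrays. It was at 8.38, 8.32 and 8.16 in EGFNWR organoids and at 8.15, 8.21 and 7.94 in ER organoids. All organoid values exceeded all others, and the rise over chief cells was 1.26 (SE 0.28, adjusted p 0.0038). The count for the other assembly factors rested on the chief arrays: without chief b 2 of the 7 fell, and with chief c as the only chief array 6 of them fell. With chief b alone 4 of the 7 rose. Whether the assembly factors differ from the subunits was not tested.

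In complex II, Sdhb, the iron-sulfur subunit, and Sdhc, a membrane anchor, fell, with differences of -1.60 (SE 0.26, adjusted p 0.00057) and -1.07 (SE 0.26, adjusted p 0.0066). Sdhb was at 10.56, 9.78 and 11.19 on the chief arrays and at 9.00, 8.83 and 8.89 in EGFNWR organoids, without overlap. Sdha, which binds the flavin, was at 10.84, 9.98 and 11.20 on the chief arrays and at 10.32, 10.52 and 10.44 in the organoids, with chief b below all 3 of them. Its difference was -0.25 (SE 0.24) and that of Sdhd, the other anchor, -0.31 (SE 0.32), and neither passed. Whether the pairs differ from each other was not tested.

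All 8 members of complex III fell. Uqcr10, a small subunit, was at 9.99, 8.23 and 10.13 on the chief arrays and at 7.38, 7.20 and 8.14 in the organoids, and it fell by 1.88 (SE 0.42, adjusted p 0.0041). The differences were -1.58 (SE 0.28) for Uqcr11, -1.22 (SE 0.41, adjusted p 0.034) for Uqcrfs1 and -1.01 (SE 0.23) for Cyc1, the cytochrome c1 subunit. Cycs, the mobile carrier, was at 12.33, 11.80 and 12.54 on the chief arrays and at 10.94, 10.79 and 10.74 in the organoids. It fell by 1.40 (SE 0.18, adjusted p 0.00012), with a gap between the groups larger than the spread within either.

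In complex IV, 11 of 19 members fell and 1 rose. The largest difference of all members was that of Cox7a1, known as the heart and skeletal muscle isoform of subunit VIIa. Cox7a1 was at 10.63, 8.57 and 11.67 on the chief arrays, at 11.66 and 11.78 on the parietal arrays and at 11.44 and 10.79 on the gland arrays. In organoids it was at 4.68, 4.59 and 4.74 with EGFNWR and at 4.88, 4.55 and 4.65 with ER, below the median of every organoid array. The difference from chief cells was -5.62 (SE 0.56, adjusted p 2.0e-05), and since levels below the array median were not shown to exceed background, its true size is uncertain. Chief b, lowest in parietal markers, was also the lowest of the 7 sorted cell and gland arrays for Cox7a1.

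Cox7a2, the isoform of the same subunit known from most tissues, was at 10.11, 9.04 and 10.58 on the chief arrays, at 10.79 and 10.90 on the parietal arrays and at 10.23 and 10.13 on the gland arrays. It was at 9.27, 9.32 and 9.38 in EGFNWR organoids and at 9.59, 9.47 and 9.35 in ER organoids. Its chief values spanned those of the organoids, and the difference of -0.59 (SE 0.29) had an adjusted p of 0.12. Among 8 muscle markers 0 to 3 were above the array median on any array, with mean levels between 4.20 and 4.85. Other isoforms known from muscle were dim: Cox6a2 lay between 4.66 and 5.92 and Cox8b between 3.71 and 5.06 over the 13 arrays.

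**Figure D5:**
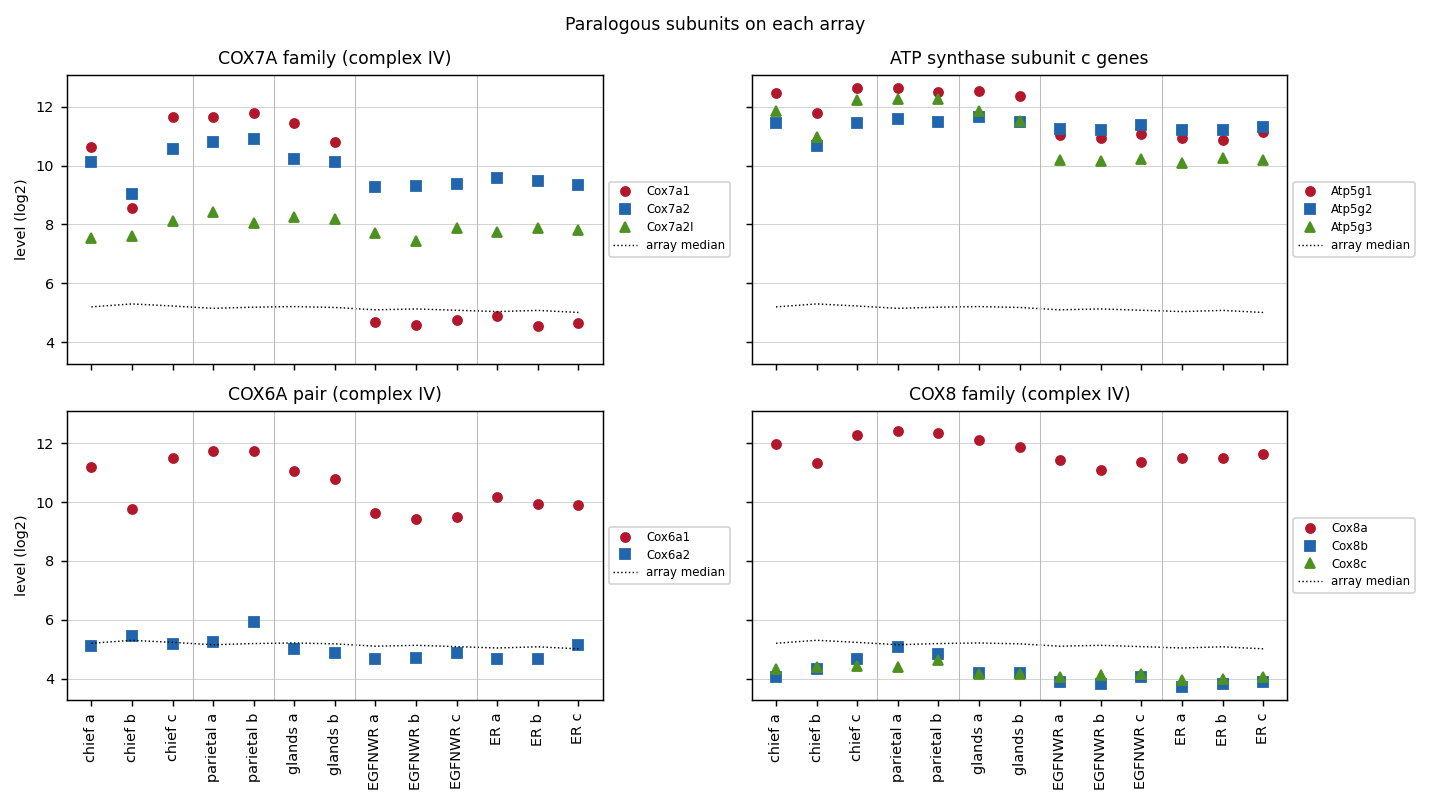
Log2 level of paralogous subunits on each of the 13 arrays (vertical axis log2, horizontal axis arrays in group order), with the array median as a dotted line; probesets differ in sensitivity, so levels compare between arrays and not between genes. Cox7a1 lies far above the array median on the 7 sorted cell and gland arrays and below it on the 6 organoid arrays, while Cox7a2, Cox6a1 and Cox8a stay above it everywhere.

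The stretches upstream of an annotated start of these isoform genes are shown because the pair differed most within 1 subunit. They are 250 bases long, from RefSeq promoters of build GRCm38.p6 (74 of the 90 members had one), 5′ to 3′ on the gene's strand. Capitals mark matches to the motifs searched on both strands: CCAAT (NF-Y), GGGCGG (SP1), the NRF1 motif by its usual consensus, CCGGAAG (GABP and other ETS factors), TCAAGGTCA (ERR) and AAGATGGCG (YY1).
Cox7a1, chr7:30183921-30184170, plus strand: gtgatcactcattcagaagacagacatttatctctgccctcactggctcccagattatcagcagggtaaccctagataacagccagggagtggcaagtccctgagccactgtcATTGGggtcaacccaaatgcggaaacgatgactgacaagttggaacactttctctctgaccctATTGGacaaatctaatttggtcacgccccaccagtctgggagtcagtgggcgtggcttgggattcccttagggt
Cox7a2, chr9:79759854-79760103, minus strand: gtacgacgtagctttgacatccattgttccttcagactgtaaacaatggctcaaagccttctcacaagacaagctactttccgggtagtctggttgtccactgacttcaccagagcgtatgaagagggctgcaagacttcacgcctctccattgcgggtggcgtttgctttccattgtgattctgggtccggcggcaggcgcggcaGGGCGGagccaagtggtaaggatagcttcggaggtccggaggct
The Cox7a1 stretch held the CCAAT motif on the reverse strand at -137 and -74 from the start, and the Cox7a2 stretch held GGGCGG at -44. These are matches of letters and not shown to be sites. CCAAT was found in 44.59% of the member promoters and 41.06% of all 27025 genes with one, counted from 250 bases before to 50 after the start, and GGGCGG in 45.95% against 38.2%.

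Ndufa4, first described in complex I and now placed in complex IV, was at 10.11, 9.32 and 10.88 on the chief arrays and at 7.59, 7.74 and 7.86 in EGFNWR organoids, and it fell by 2.37 (SE 0.32, adjusted p 0.00015). The differences were -1.34 (SE 0.28) for Cox5a, -1.29 (SE 0.33) for Cox6a1 and -0.99 (SE 0.16) for Cox7b. They were -0.85 (SE 0.31) for Cox4i1, the common isoform of subunit IV, and -0.57 (SE 0.21) for Cox8a. For Cox4i1 and Cox8a the ranges of the groups overlapped at chief b. Cox6b2, known as the testis isoform of subunit VIb, was at 4.95, 4.96 and 5.00 on the chief arrays and at 5.46, 5.39 and 5.85 in the organoids, a rise of 0.60 (SE 0.20, adjusted p 0.031) at levels close to the array medians. It did not pass when any 1 of the chief arrays was left out.

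In complex V, 9 of 17 members fell. Atp5l was at 9.85, 9.33 and 10.66 on the chief arrays and at 7.30, 7.29 and 7.87 in the organoids, and it fell by 2.46 (SE 0.28, adjusted p 4.9e-05). Its 6 probesets gave differences between -2.42 and -2.55, and near-identical copies of the gene cannot be told apart by them. Genes of F1, the catalytic head with the central stalk (Atp5a1, Atp5b, Atp5c1, Atp5d and Atp5e), ranged from -0.62 to 0.20 with a median of -0.33. None of the 5 passed. Of the other 12 members, in the outer stalk and the membrane part, 9 fell, and their median was -1.23. Atp5b, the catalytic beta subunit, was at 12.49, 12.04 and 12.35 on the chief arrays and at 12.06, 11.98 and 11.85 in the organoids, with overlap at chief b (-0.33, SE 0.14, adjusted p 0.073). The division into F1 and remainder was made after the values were seen, and it rested on chief b: without that array 4 of the 5 F1 genes and 9 of the other 12 fell.

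Subunit c, which forms the turning ring, is encoded by 3 genes whose mature protein is the same. Atp5g1 was at 12.47, 11.80 and 12.64 on the chief arrays and at 11.04, 10.94 and 11.08 in EGFNWR organoids, and it fell by 1.28 (SE 0.19, adjusted p 0.00028). Atp5g3 was at 11.87, 10.97 and 12.22 and at 10.18, 10.15 and 10.23 in the same order, and its difference was -1.50 (SE 0.25, adjusted p 0.00058). Atp5g2 was at 11.46, 10.68 and 11.45 on the chief arrays and at 11.25, 11.21 and 11.39 in the organoids, where the values lay within the range of the chief arrays (0.09, SE 0.18, adjusted p 0.73). The difference between Atp5g2 and the others was not itself tested. The upstream stretches of the 3 genes are drawn and marked in the same way.
Atp5g1, chr11:96075632-96075881, minus strand: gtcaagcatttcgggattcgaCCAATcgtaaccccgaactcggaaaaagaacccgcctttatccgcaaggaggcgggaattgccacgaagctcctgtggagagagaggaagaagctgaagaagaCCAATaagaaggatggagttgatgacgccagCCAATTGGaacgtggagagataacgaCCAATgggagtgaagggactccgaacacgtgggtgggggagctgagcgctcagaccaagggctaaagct
Atp5g2, chr15:102671048-102671297, minus strand: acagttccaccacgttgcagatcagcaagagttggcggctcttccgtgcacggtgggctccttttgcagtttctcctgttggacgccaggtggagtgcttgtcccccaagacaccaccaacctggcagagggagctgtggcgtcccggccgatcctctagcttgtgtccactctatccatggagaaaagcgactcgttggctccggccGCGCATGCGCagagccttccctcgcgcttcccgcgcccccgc
Atp5g3, chr2:73911327-73911576, minus strand: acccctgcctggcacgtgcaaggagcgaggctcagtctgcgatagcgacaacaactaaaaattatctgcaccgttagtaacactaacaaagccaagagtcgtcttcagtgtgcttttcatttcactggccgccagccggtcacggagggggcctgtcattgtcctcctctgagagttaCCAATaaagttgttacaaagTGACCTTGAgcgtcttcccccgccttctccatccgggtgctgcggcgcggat
The Atp5g1 stretch held 5 matches to CCAAT or its reverse complement, 1 pair of them overlapping. The Atp5g2 stretch held the NRF1 motif at -42, a run that reads the same on both strands, and the Atp5g3 stretch held the reverse complement of TCAAGGTCA at -52 and CCAAT at -72. The shares below were counted in the longer window that runs past the start. That window also held 1 NRF1 match for Atp5g3 and 1 GGGCGG match for Atp5g2, neither within the stretches shown. The NRF1 motif was thus found for both Atp5g2 and Atp5g3. The NRF1 motif was found in 25.68% of the 74 member promoters against 5.19% of all genes with a promoter, CCGGAAG in 24.32% against 9.93%, AAGATGGCG in 9.46% against 1.64% and TCAAGGTCA in 2.7%, Atp5g3 and Sdhd, against 0.47%. Among members that fell in EGFNWR organoids the NRF1 motif was in 10 of 42 promoters (23.8%), and among the remaining members in 9 of 32 (28.1%).

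The extent of this fall depended on the chief array. Leaving out chief b or chief c moved the count of members called from 53 to 73 or 39 and the median difference to -1.17 or -0.50, while the share of all genes called went from 40.3% to 37.3% or 35.7%. Of the 28 other subunits of complex I 27 fell without chief b and 10 without chief c, and of the 8 members of complex III 8 and 6 did. The count for complex IV was 11 without chief b and 6 without chief c, and that for complex V was 13 and 9. With chief b as the only chief array, 25 members were lower, 12 were higher and the median difference was -0.13 (37 members called, with 44.0% of all genes called). With chief a alone 67 were lower and 1 higher (median -0.97, with 27.4% of all genes called), and with chief c alone 77 were lower and 1 higher (median -1.41, with 51.2% of all genes called). In these fits the lone array is assumed to vary like the other groups. Members whose difference was below 0 with each of the 3 arrays alone included Cox7a1, Ndufa4, Cox5a, Cox7b, Cycs, Sdhb and Ndufs1. Ndufa1, Uqcr11, Uqcrb, Atp5l, Atp5g1 and Atp5g3 were also among them. For Ndufaf1 the difference was above 0 with each array alone. The share of all genes with such a pattern was not counted. For Cox7a1 the difference was -5.96, -3.90 and -7.00 with chief a, b and c alone. For Sdhd, Sdha, Atp5e and Cox7a2 it was above 0 with chief b alone, by 0.61, 0.45, 0.55 and 0.28. Parietal markers differed between the same groups: 12 of 15 were lower in EGFNWR organoids, with a median difference of -2.59. Their part in the fall of the members was not tested.

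ER medium, which lacks Gastrin, FGF10, Noggin and Wnt3a, was compared with EGFNWR medium within 1 experiment. In limma 4 members rose (4.44%, against 9.13% of all genes) and none fell (against 10.1%). At an unadjusted p of 0.05, 11 were higher (12.2%, against 15.2%) and 2 lower (2.22%, against 16.6%). With all 13 arrays in 1 limma fit no member was called, and none had an unadjusted p under 0.05 (9.06% of all genes were called). Called either way were 19.2% of all genes. The ranges did not overlap, with ER higher, for 19 members (21.1%, against 17.8%) and, with ER lower, for 6 (6.67%, against 18.2%), and the median difference was 0.05, against 0.01 over all genes. Cox5a was at 8.28, 8.40 and 8.51 in EGFNWR and at 9.03, 8.86 and 8.92 in ER, a rise of 0.54 (SE 0.10, adjusted p 0.0098) without overlap. Cox6a1, the isoform of subunit VIa known outside muscle, was at 9.64, 9.43 and 9.49 and at 10.16, 9.94 and 9.89, a rise of 0.48 (SE 0.11, adjusted p 0.022). Ndufs6, an accessory subunit of complex I, rose by 0.47 (SE 0.13, adjusted p 0.048), and Atp5h, subunit d of the stalk of the ATP synthase, by 0.32 (SE 0.09, adjusted p 0.043). The count of 4 was 2 without EGFNWR a, 1 without EGFNWR b, 6 without EGFNWR c, 1 without ER a and 2 without ER c. Without ER b it was 6, of which 5 were higher and 1, Ndufa4, was lower. The shares of all genes called in these fits are not given here, so the counts cannot be set against them.

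With the replicate letter as a block, 8 members rose (23.6% of all genes were called in either direction). Uqcr10, at 7.38, 7.20 and 8.14 in EGFNWR and at 8.31, 8.23 and 8.80 in ER, then passed (0.87, adjusted p 0.0045), against 0.055 without the block. Ndufa6, Sdhd, Atp5e and Ndufa12 passed too, with rises of 0.44, 0.40, 0.37 and 0.35, while Ndufs6 did not. Ndufa4 was at 7.59, 7.74 and 7.86 in EGFNWR and at 7.12, 7.60 and 6.93 in ER and did not pass in either fit (-0.51, SE 0.18, adjusted p 0.085 without the block). Without ER b it did, with a difference of -0.70 (adjusted p 0.011, limma). Cox7a1 stayed below the array medians in both media. Over the same arrays all 11 proliferation markers fell in ER medium, with mean levels of 8.64 to 8.96 in EGFNWR and 6.65 to 7.66 in ER, and 8 of 9 pit cell markers rose, with mean levels of 6.95 to 8.77 and 9.40 to 10.36. Their part in the rises of the members was not tested.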

How the data were processed

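Arrays were deposited as log2 expression values, made with RMA in Affymetrix Power Tools, per the submitters' processing notes; the sources used here name no genome build or annotation. Between 100 and 300 ng of RNA were labelled per array, per the labels' protocols. Of 35556 probesets, 21218 carried 1 symbol, 1881 several and 12457 none, and 21185 of the first were matched to RefSeq. The number of arrays limits the precision. Groups came from sample titles. Group means were fitted with limma 3.58.1 (R 4.3.3, statmod 1.5.0) on the log2 values of 18820 genes, with Benjamini-Hochberg adjustment over all of them and a threshold of 0.05: 7 arrays for the sorted cells and glands, 6 for the media and 13 for organoids against chief cells. The fit was tested on simulated data with 200 changed genes and every gene drawn independently. Shifts that many genes share on 1 array were thus not simulated. Of changes of 1 unit the fit recovered 18% for chief minus parietal, 17% for chief minus glands and 9% for parietal minus glands. For ER minus EGFNWR and for EGFNWR minus chief it recovered 71%. Of changes of 2 units it recovered 75%, 84%, 61%, 97% and 95% in the same order of comparisons. A lack of calls among sorted cells and glands thus does not show a lack of difference. Deviations of EGFNWR and ER arrays with the same letter correlated at 0.184, 0.233 and 0.386. With other letters they correlated between -0.305 and 0.146. Deviations were taken from the group mean and sum to 0 within a group, so other-letter values depend on same-letter ones. These values therefore do not settle a pairing by letter. Letters pair the arrays only in the fits with the replicate block, and the main fits used group means alone.

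The members, role groups and gene lists were chosen with earlier results of these data known, and no test was run over a list. Named members were those past the threshold or with the largest differences in each comparison, the brightest of each complex, the complex II genes, Cycs, Cyc1 and the isoforms of complexes IV and V; others named were chosen after their values were seen. Alternatives covered normalization, centring, dim genes, variance model, array weights, arrays fitted, probeset choice, each replicate left out and the replicate block.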

Additional observations from a re-analysis of the deposited data

How the results depend on the processing

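The median member difference kept its sign under all alternatives run for chief minus parietal, parietal minus glands, ER minus EGFNWR and EGFNWR minus chief, and its sign changed for chief minus glands. Leaving out each array in turn gave medians from -1.01 to -0.37 for chief minus parietal, from -0.38 to 0.24 for chief minus glands, from 0.48 to 0.73 for parietal minus glands, from 0.02 to 0.09 for ER minus EGFNWR and from -1.17 (without chief b) to -0.50 for EGFNWR minus chief. Centring arrays on their median moved the ER minus EGFNWR median to 0.12. With only chief b or only chief c kept, alternatives chosen after seeing the data, the EGFNWR minus chief median was -0.13 or -1.41. For chief minus parietal, 0 members were called without chief a or without chief b (0% of all genes each) and 15 without chief c (7.01%). For chief minus glands, 0 were called without chief a, b or c (2.33%, 0.133% and 0.983% of all genes). Omissions gave from 1 to 6 members called for ER minus EGFNWR and from 39 to 73 (without chief b) for EGFNWR minus chief. Where an omission left an arm with 1 array, that array is assumed to vary like the other groups, and its count is left out here. For parietal minus glands, 16 members were called with array weights (17.0% of all genes), 10 with all 13 arrays in 1 fit and 34 with the 2 groups alone (14.4% of all genes in each). For ER minus EGFNWR, 2 were called after repeated quantile normalization (20.3% of all genes) and 8 with array weights (22.6%). With all 13 arrays in 1 limma fit 0 were called (9.06% of all genes), also 0 at an unadjusted p of 0.05. The count was 2 when every probeset was tested. Without EGFNWR a, EGFNWR b, ER a or ER c it was 2, 1, 1 and 2. Of the 53 members called for EGFNWR minus chief, 26 were called in all 19 alternatives. How many of all called genes were called in each alternative was not counted.

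With the replicate block, 30 members were called lower for chief minus parietal (8.77% of all genes called; chief c then has no partner), 13 for parietal minus glands (8.5%), 8 for ER minus EGFNWR (23.6%), 56 for EGFNWR minus chief (42.0%) and, in limma, 0 for chief minus glands (1.18%, with 6 members at an unadjusted p of 0.05). Same-letter correlations were 0.263 and 0.11 for chief and parietal cells, over only 2 letters, and between -0.194 and 0.0693 in the other pairs outside the organoid media, and the labels do not settle whether the letters pair these arrays.

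Among the named members 26 values changed sign. With each array left out in turn, Cox6b2 ranged from -0.10 to 0.25 for chief minus parietal and Cox7a1 from -1.51 to 0.035 (without chief b) for chief minus glands. For parietal minus glands, Atp5g2 was at 0.03 without parietal b and 0.035 without glands a, and Ndufa3 at 0.05 without glands a. For EGFNWR minus chief, Atp5g2 was at -0.035 after quantile normalization. Leaving out arrays in turn there gave -0.17 (without chief b) to 0.58 for Atp5md, -0.17 (without chief b) to 0.22 for Atp5g2, -0.053 (without chief b) to 0.38 for Atp5d, -0.25 (without chief b) to 0.43 for Ndufs4 and -0.59 to 0.017 (without chief c) for Sdha. With only chief a, Atp5md, Atp5g2, Atp5d and Ndufs4 were at -0.20, -0.18, -0.15 and -0.18, and with only chief c Atp5md, Atp5g2 and Ndufs4 at -0.15, -0.17 and -0.31. With only chief b, Ndufs7 was at 0.12, Sdha at 0.45, Sdhd at 0.61, Uqcrfs1 at 0.05, Cox7a2 at 0.28, Cox4i1 at 0.10, Atp5a1 at 0.11 and Atp5e at 0.55. The causes were not tested. Probesets of the 24 members with several had the same sign for 23 in EGFNWR minus chief and for 20 in ER minus EGFNWR.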

Other observations

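Other genes of mitochondrial energy supply did not all follow the members in EGFNWR organoids against chief cells. Of 17 regulators of mitochondrial biogenesis and mitochondrial DNA, 5 fell and 4 rose in limma. Esrrg, a nuclear receptor that is also a parietal cell marker, was between 10.57 and 11.70 on the chief arrays and between 4.12 and 5.69 in EGFNWR organoids, and it fell by 6.51 (SE 0.40, adjusted p 7.2e-07). The coactivators Ppargc1b and Ppargc1a fell, with differences of -1.80 (SE 0.37) and -1.51 (SE 0.37), as did Ppara (-1.94, SE 0.22) and Polg2 (-1.94, SE 0.36). Tfam, which packages and transcribes mitochondrial DNA, was at 6.35, 5.77 and 6.09 on the chief arrays and at 7.28, 7.25 and 7.26 in the organoids, and it rose by 1.19 (SE 0.16, adjusted p 0.00017), as did the helicase gene Twnk by 0.87 (SE 0.16). Of 11 citrate cycle enzymes, 4 fell and none rose, with Ogdh lower by 1.67 (SE 0.16) and Suclg1 by 1.26 (SE 0.21). Of 19 carriers and import components, 3 rose, among them the import receptor Tomm20 by 0.66 (SE 0.13), and 1, the phosphate carrier Slc25a3, fell by 0.55 (SE 0.17). Ckb, a creatine kinase that is also a parietal marker, fell too (-5.60, SE 0.42), as did Sod2 (-1.21, SE 0.20) and Nnt (-1.51, SE 0.27), of oxidant defence. Over all genes 16.2% fell and 24.1% rose in that comparison. The genes named here kept their direction without chief b and without chief c, and all passed in both fits except Slc25a3 without chief c (-0.45, adjusted p 0.079, limma). The count of citrate cycle enzymes that fell was 11 of 11 without chief b and 2 without chief c.

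Between media, Ppargc1a was at 8.88, 8.33 and 8.29 in EGFNWR organoids and at 6.85, 6.98 and 6.47 in ER organoids, and it fell by 1.73 (SE 0.20, adjusted p 0.0045, limma). Over all genes 10.1% fell and 9.13% rose between these media. Of the 19 carriers and import components 6 fell and none rose, with the chaperonin genes Hspe1 and Hspd1 lower by 0.89 (SE 0.15) and 0.76 (SE 0.13). Of 14 complex IV assembly genes 3 rose, Higd2a by 0.50 (SE 0.11), Surf1 by 0.43 (SE 0.10) and Sco1 by 0.39 (SE 0.09), and Cox20 fell by 0.65 (SE 0.18). Of 9 complex I assembly genes outside the member rule 2 fell, Ecsit by 0.53 (SE 0.12) and Nubpl by 0.51 (SE 0.12). In the comparisons among chief cells, parietal cells and glands none of the 95 genes of these energy supply lists was called in limma. At an unadjusted p of 0.05, 20 were lower and 3 higher in chief than in parietal cells (6.26% and 5.86% of all genes). In chief cells against glands 6 were lower and 1 higher (8.69% and 6.35% of all genes), and in parietal cells against glands 14 were higher and 2 lower (9.85% and 11% of all genes).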
